A study of Homo sapiens with 4 samples.

Results

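Androgens can lower as well as raise the transcription of genes, and 5 genes tied to repression by the androgen receptor were followed in C4-2 prostate cancer cells. They were OPRK1, CCN3, SERPINI1, DDC and MET, found among 60483 gene rows by Ensembl identifier, and all 5 passed the filter that left 20325 genes for testing. The set was chosen from knowledge of androgen-repressed genes together with measured values of the same contrast, C4-2-ENZ against C4-2-CON. The differences of these 5 genes between the groups are therefore given as a description, with no test.

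C4-2-ENZ are enzalutamide-resistant C4-2 cells (2 libraries) and C4-2-CON are control C4-2 cells (2 libraries). C4-2 is an established human line derived from LNCaP cells, and enzalutamide blocks the androgen receptor. Per the labels the cells were kept with or without the drug for 1 month, in medium with 10% serum, at passage 20 to 30; whether controls had vehicle is not stated. Drug exposure and resistance coincide in the same 2 libraries and cannot be told apart. The labels do not say that replicates were separate cultures, so the spread between libraries may be technical. They also mention an expansion medium with FGF-2 without saying which cells received it.

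The androgen receptor is a nuclear receptor that binds DNA when it holds an androgen. At many genes of the prostate epithelium it activates transcription, and at others it recruits corepressors or displaces activators, so that transcript levels are low while androgen is present and higher when the receptor is blocked. OPRK1 encodes the kappa opioid receptor, which couples to inhibitory G proteins and answers to dynorphin. CCN3, also called NOV, is a secreted matricellular protein. SERPINI1 encodes neuroserpin, an inhibitor of tissue plasminogen activator. DDC is aromatic L-amino acid decarboxylase, which makes dopamine and serotonin from their precursors, and MET is the receptor tyrosine kinase for hepatocyte growth factor.

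Sequences next to the transcript starts of 3 of these genes are shown because the members had higher levels in the same libraries. SERPINI1, MET and CCN3 also have neighbours that differed the other way, though no sequence is shown for CCN3. RefSeq start windows (GRCh38) were searched for only 3 of the 5 members, SERPINI1, DDC and MET. OPRK1 and CCN3 were left out of the search and are named only, so the matches below say nothing of their starts. Each window covered the 250 bases before a start, and the part outside exons annotated in GENCODE 29 is printed, 5′ to 3′ on the gene's strand. Capitals mark a CCAAT box (CCAAT or its reverse ATTGG) or a GC box (GGGCGG or its reverse CCGCCC). The SERPINI1 window fell wholly in an annotated exon, so part of the stretch between it and its divergent neighbour PDCD10 is shown, from the PDCD10 side.
PDCD10 side of the SERPINI1 interval, chr3:167734940-167735142, minus strand: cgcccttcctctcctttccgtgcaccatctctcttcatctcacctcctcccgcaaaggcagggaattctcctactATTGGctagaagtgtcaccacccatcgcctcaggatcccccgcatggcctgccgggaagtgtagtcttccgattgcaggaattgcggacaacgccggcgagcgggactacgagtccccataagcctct
DDC outer start, chr7:50565458-50565655, minus strand: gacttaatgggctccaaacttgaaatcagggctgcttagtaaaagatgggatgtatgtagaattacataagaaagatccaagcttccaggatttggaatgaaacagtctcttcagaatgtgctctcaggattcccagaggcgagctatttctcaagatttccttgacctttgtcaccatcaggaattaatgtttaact
DDC inner start, chr7:50561072-50561321, minus strand: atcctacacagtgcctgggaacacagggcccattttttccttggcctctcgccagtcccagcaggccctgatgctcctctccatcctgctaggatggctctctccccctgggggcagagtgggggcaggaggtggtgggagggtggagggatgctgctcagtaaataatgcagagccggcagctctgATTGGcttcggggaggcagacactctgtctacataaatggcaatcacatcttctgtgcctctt
MET, chr7:116671946-116672195, plus strand: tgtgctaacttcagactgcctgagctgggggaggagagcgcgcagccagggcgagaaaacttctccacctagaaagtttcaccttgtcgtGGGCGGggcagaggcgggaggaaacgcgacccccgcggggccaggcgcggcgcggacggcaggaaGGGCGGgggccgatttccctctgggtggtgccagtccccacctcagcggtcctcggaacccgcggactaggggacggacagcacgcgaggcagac

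The hexamer AGAACA or its reverse TGTTCT, a half-site of the androgen response element, had 0 matches in the 250-base windows of SERPINI1, MET and both DDC starts, and 12.4% of 35116 RefSeq windows of that length held it. The forkhead motif TGTTTAC and the TATA box TATAAA, searched on both strands, also had 0 matches in these windows, and 2.98% and 10.7% of all windows held them. The MET window held 2 GC boxes, which 42.6% of all windows hold at least once, and 24 CpG dinucleotides against a median of 11 over all windows. The inner DDC window held 1 CCAAT box, a match that 32.0% of windows have, and the outer one, 4334 bases upstream, held none. The SERPINI1 window, all of it in an annotated exon, held 0 CCAAT boxes and 0 GC boxes. The ATTGG marked in the PDCD10-side stretch belongs to the window of PDCD10, not to that of SERPINI1. The outer DDC window was 42.4% G and C, the inner one 58.0%, the SERPINI1 window 64.8% and the MET window 68.4%, against a median of 58.0%. DDC is known to start at different first exons in neuronal and other tissues, and gene counts do not separate them. These matches describe letters in short windows and say nothing of whether the receptor binds elsewhere.

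Gene counts totalled 45033885 and 39047453 in C4-2-ENZ libraries, against 25589724 and 29866008 in C4-2-CON libraries. Reads that did not align were 20.32% and 20.66% of HTSeq records in C4-2-ENZ and 36.95% and 34.16% in C4-2-CON, and the part of this difference in any result was not tested. Of 20325 genes tested, 64.7% were called in either direction at an adjusted p below 0.05, 33.0% higher and 31.7% lower in C4-2-ENZ. Of all genes tested, 81.3% had groups that did not overlap in CPM (read counts scaled to a common library size by TMM). In bulk RNA, fewer cells of a type and less RNA per cell cannot be told apart. All 10 luminal prostate markers passed the filter; their summed level was 4447 and 4452 CPM in C4-2-ENZ and 3157 and 3179 CPM in C4-2-CON. Among 11 neuroendocrine markers, which matter here because OPRK1, SERPINI1 and DDC are also neuronal genes, only 4 passed the filter and only ENO2, neuronal enolase, was called; it was named after its values were seen. ENO2 made up most of their summed level of 46.46 and 43.93 CPM in C4-2-ENZ and 12.0 and 11.19 CPM in C4-2-CON, while INSM1 was at 0 in all 4 libraries. The part of these markers in the members' values was not tested. Neural stem markers summed to 3.38 and 3.088 CPM in C4-2-ENZ, against 4.908 and 6.058 CPM in C4-2-CON, and fibroblast and leukocyte markers to between 9.916 and 12.58 CPM in any library.

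OPRK1 lies on chromosome 8 at 53225716 to 53251697 (GRCh38, GENCODE 29, minus strand). It had 1047 and 886 counts in C4-2-ENZ libraries, against 5 and 9 counts in C4-2-CON libraries. In CPM this was 21.71 and 21.38 in C4-2-ENZ, and 0.2097 and 0.3207 in C4-2-CON. The transcript was thus close to the detection limit in both control libraries and plainly present in both resistant ones, with no overlap. The log2 fold change was 6.30 (approximate SE 0.143), a 78.9-fold higher level in C4-2-ENZ and rank 16 among the genes tested in order of log2 fold change. With DESeq2 it was 6.33 with a larger SE of 0.405, and the approximate SE understates the noise of so few control counts. The size rests on few control counts: the log2 fold change was 6.06 without C4-2-CON replicate 1 and 6.66 without C4-2-CON replicate 2. An antisense gene that partly overlaps the span of OPRK1 shared no exonic base with it and had at most 4 counts.

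SERPINI1, on chromosome 3 at 167735243 to 167825568 (plus strand), had 60.6 and 60.89 CPM in C4-2-ENZ, against 12.25 and 12.76 CPM in C4-2-CON. The 2 libraries within each group were nearly equal, and the groups were far apart. Neuroserpin transcript was 4.85-fold higher in C4-2-ENZ (log2 fold change 2.28, SE 0.0575). With a correction for gene length and GC content the log2 fold change was 2.68.

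CCN3, on chromosome 8 at 119416306 to 119424353 (plus strand), had 249 and 196 counts in C4-2-ENZ libraries and 33 and 30 counts in C4-2-CON libraries. Its levels were 5.164 and 4.729 CPM in C4-2-ENZ and 1.384 and 1.069 CPM in C4-2-CON. The control pair was the wider apart on the log scale, and the groups did not overlap. The log2 fold change was 2.02 (approximate SE 0.169), and 2.03 with an SE of 0.29 by DESeq2.

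MET, on chromosome 7 at 116672390 to 116798386 (plus strand), was at 6.595 and 5.573 CPM in C4-2-ENZ, against 2.433 and 2.495 CPM in C4-2-CON. Counts were 318 and 231 in C4-2-ENZ and 58 and 70 in C4-2-CON. Here the resistant libraries were the less even pair, and the groups did not overlap. The level was 2.47-fold higher in C4-2-ENZ (log2 fold change 1.31, approximate SE 0.142). By DESeq2 the SE was 0.233.

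DDC, on chromosome 7 at 50458436 to 50565457 (minus strand), was abundant in every library, with 10250 and 8451 counts in C4-2-ENZ and 4267 and 5044 counts in C4-2-CON. Its levels were 212.6 and 203.9 CPM in C4-2-ENZ and 179.0 and 179.7 CPM in C4-2-CON. The groups did not overlap but lay close together, 1.16-fold apart, with a log2 fold change of 0.22 (SE 0.0395). This value depends on the scaling: it was 0.40 when libraries were scaled by total count, a change that moved the median of all genes by 0.188, and 0.17 with a filter of 1 CPM. Relative to the median of all genes it was 0.23 under TMM and under total count scaling. Such a change of scaling shifts all genes nearly alike, so this agreement follows from the subtraction and says nothing of how firm the rise is. DDC-AS1, which is antisense to DDC and shares 114 exonic bases with it, had at most 1 count in a library. FIGNL1 lies partly within the span of DDC on the same strand with no shared exonic base and fell 1.35-fold. The sources used here do not give whether counting used strand, so antisense reads cannot be told apart from reads of the gene.

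**Figure D1:**
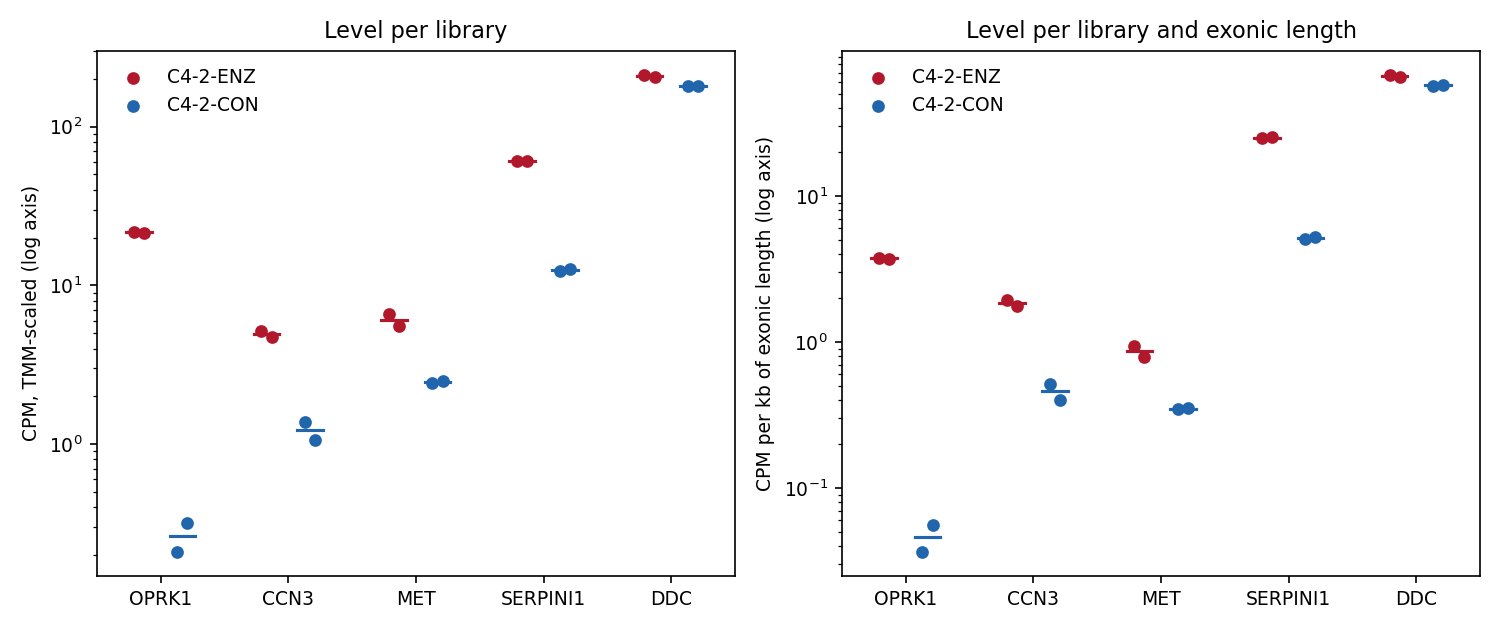
Level of each member in each library, as TMM-scaled CPM (left, log axis) and as CPM per kb of exonic length (right, log axis); points are libraries, bars are means of the 2 libraries of a group. OPRK1 is the lowest member in C4-2-CON and is above CCN3 and MET in C4-2-ENZ, while DDC is the highest in both groups.

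All 5 members had higher levels in C4-2-ENZ with groups that did not overlap, and 40.4% of all genes tested had the same pattern; nothing is read from this count, since the contrast was used to choose them. Their log2 fold changes spanned 0.22 to 6.30, with a median of 2.02. In order of log2 fold change among the genes tested, OPRK1 ranked 16, SERPINI1 272, CCN3 358, MET 952 and DDC 7324. Within a group the spread was small beside these differences for OPRK1, SERPINI1, CCN3 and MET, with SDs of log2 CPM of 0.016, 0.00493, 0.0899 and 0.172 in C4-2-ENZ and of 0.433, 0.0415, 0.264 and 0.0255 in C4-2-CON. For DDC the SDs were 0.0426 and 0.00427. Protein-coding genes of like exonic length (within 1.2 times) had median log2 fold changes of 0.105 for the length of OPRK1, -0.04 for CCN3, -0.052 for SERPINI1, 0.001 for DDC and 0.144 for MET.

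Levels of different genes were compared per kb of exonic length. In C4-2-ENZ the order was DDC (67.78 and 65.01 CPM per kb), SERPINI1 (25.06 and 25.18), OPRK1 (3.784 and 3.725), CCN3 (1.932 and 1.769) and MET (0.9369 and 0.7917). In C4-2-CON it was DDC (57.08 and 57.32 CPM per kb), SERPINI1 (5.066 and 5.276), CCN3 (0.5179 and 0.40), MET (0.3457 and 0.3544) and OPRK1 (0.03655 and 0.0559). The OPRK1 transcript thus stood above those of CCN3 and MET in resistant cells and below both in control cells. The other 4 members kept their order among themselves. No neighbours in either order overlapped; CCN3 and MET in C4-2-CON came closest. DDC made up 68.1% and 67.4% of the summed level per kb of the 5 genes in C4-2-ENZ, against 90.5% and 90.4% in C4-2-CON. Among protein-coding genes, SERPINI1 stood at percentile 91.9 and 92.0 in C4-2-ENZ and at 66.5 and 67.1 in C4-2-CON. OPRK1 stood at percentile 59.7 and 59.3 in C4-2-ENZ and at 24.9 and 27.7 in C4-2-CON.

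**Figure D2:**
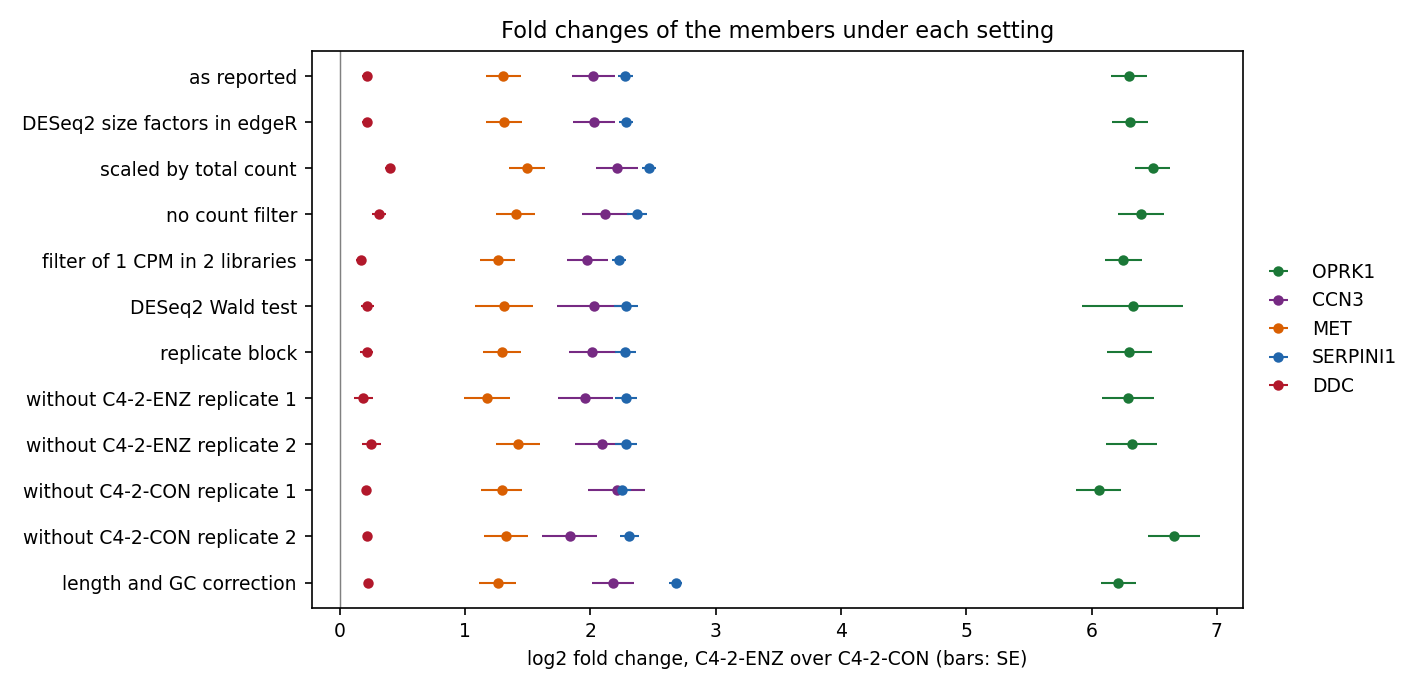
Log2 fold change of each member (C4-2-ENZ over C4-2-CON, bars show the SE, approximate in edgeR fits) under the reported fit and each other setting. Every point lies above 0; DDC lies between 0.168 and 0.404, and OPRK1 between 6.056 and 6.661.

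The nearest protein-coding genes on either side were followed next, since their positions do not depend on the measured values. SERPINI1 and PDCD10, an adaptor protein of endothelial junctions and the Golgi, are transcribed away from each other with 303 bases between them in GENCODE 29; the sequence printed above is the 203 bases of this gap nearest PDCD10. PDCD10 had 61.22 and 62.99 CPM in C4-2-ENZ, against 174.0 and 169.5 CPM in C4-2-CON. It fell in C4-2-ENZ by 1.47 on the log2 scale (SE 0.0428, edgeR adjusted p = 1.13e-10), while SERPINI1 on the other side of the interval was higher in the same libraries. With the length and GC correction the value for PDCD10 was -0.997 (edgeR adjusted p = 9.48e-12). The genes overlap at no annotated base. GOLIM4, a Golgi protein on the far side of SERPINI1, rose 3.94-fold, with 360.8 and 369.1 CPM in C4-2-ENZ and 95.69 and 89.52 CPM in C4-2-CON (edgeR adjusted p = 1.61e-11).

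Beside MET, CAPZA2, an actin capping subunit, lies 12684 bases downstream on the same strand. It had 310.0 and 302.7 CPM in C4-2-ENZ and 720.6 and 700.8 CPM in C4-2-CON, which is lower by 2.32-fold in C4-2-ENZ (edgeR adjusted p = 1.06e-10), where MET was higher. On the other side CAV1, caveolin 1, had at most 4 counts in a library and was not tested. Beside CCN3, the membrane protein gene MAL2 fell 1.85-fold (edgeR adjusted p = 4.19e-09), and ENPP2, autotaxin, had at most 2 counts. The imprinted adaptor gene GRB10, 24606 bases from DDC, rose 1.97-fold to 821.4 and 810.6 CPM in C4-2-ENZ, against 409.3 and 420.8 CPM in C4-2-CON (edgeR adjusted p = 3.95e-10), while IKZF1 on the other side had at most 3 counts. Near OPRK1, NPBWR1, another G protein-coupled neuropeptide receptor, rose to 98 and 75 counts in C4-2-ENZ, against 6 and 2 counts in C4-2-CON (log2 fold change 3.61, SE 0.358, edgeR adjusted p = 3.07e-06). It lies 284599 bases from OPRK1. ATP6V1H, a proton pump subunit on the other side, rose 1.37-fold. Of the 7 neighbours tested, 4 were higher and 3 lower, against 33.0% and 31.7% of all genes.

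**Figure D3:**
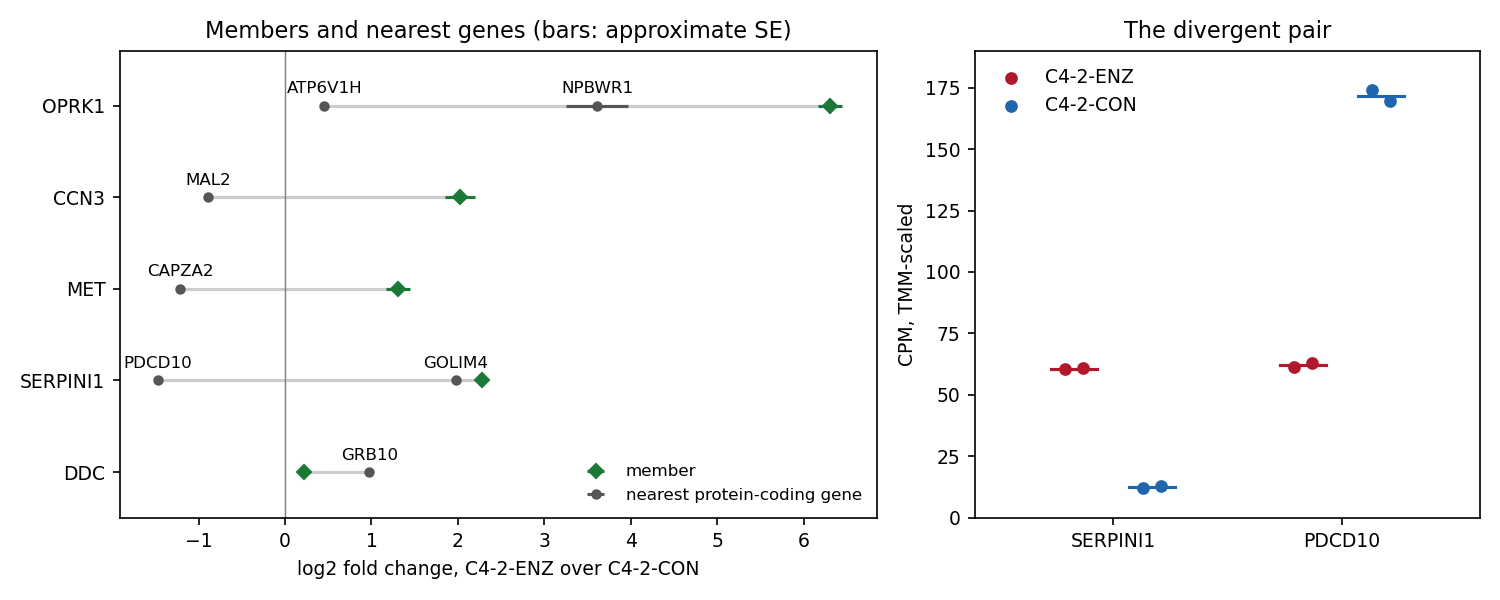
Left, log2 fold change (C4-2-ENZ over C4-2-CON, bars show the approximate SE) of each member and of its nearest protein-coding genes that were tested; right, CPM per library of SERPINI1 and its divergent neighbour PDCD10 (points are libraries, bars are means). PDCD10, MAL2 and CAPZA2 lie below 0 beside members above 0.

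Other genes known to be repressed by androgen or its receptor did not all have higher levels. Of 15 such genes, all tested, 8 rose, 4 fell and 3 were not called, with a median log2 fold change of 0.28 against -0.016 over all genes tested. All genes of the lists here and below are protein-coding, and the protein-coding genes tested had a median of 0.088. Of all genes tested, 33.0% were called higher and 31.7% lower. The share of this list that fell is near that of all genes, and the share that rose is larger. Neither difference in share was tested. The lists here and below were drawn up with earlier results of these data known, so their shares and medians are description only. UGT2B17 and UGT2B15, which glucuronidate androgens and share sequence, so that reads may be split between them, rose 3.44-fold and 1.41-fold. ERBB2, a receptor tyrosine kinase, rose 2.44-fold. AKR1C3, which makes testosterone and has near-identical relatives, reached 1.867 and 1.809 CPM in C4-2-ENZ and was at 0.1258 and 0.2138 CPM in C4-2-CON (edgeR adjusted p = 1.4e-06). Smaller rises were seen for FOLH1, prostate-specific membrane antigen (1.25-fold), the chemokine receptor ACKR3 (1.22-fold) and CAMK2N1, a kinase inhibitor (1.21-fold).

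PEG10, a retrotransposon-derived imprinted gene, went the other way, with 1.701 and 2.292 CPM in C4-2-ENZ and 6.334 and 7.02 CPM in C4-2-CON (log2 fold change -1.76, SE 0.154, edgeR adjusted p = 1.05e-06). HSD17B6, of androgen metabolism, fell 1.71-fold. POU3F2, a neural transcription factor, fell 1.98-fold from few reads (edgeR adjusted p = 0.0154); that call ended with DESeq2 (adjusted p = 0.153), without C4-2-ENZ replicate 2 and without C4-2-CON replicate 1. BLVRB, biliverdin reductase B, had a log2 fold change of -0.20, and it was no longer called when libraries were scaled by total count, when no filter was used, or when C4-2-ENZ replicate 2 or C4-2-CON replicate 2 was left out. CLU, clusterin, was at 26.55 and 26.03 CPM in C4-2-ENZ and 25.42 and 26.05 CPM in C4-2-CON and was not called. Its sign depended on the setting: the log2 fold change was 0.22 with total count scaling (edgeR adjusted p = 0.00615) and -0.25 with the length and GC correction (edgeR adjusted p = 0.000661). The glucocorticoid receptor gene NR3C1 had 1.431 and 1.496 CPM in C4-2-ENZ, against 1.762 and 1.319 CPM in C4-2-CON, and TUBB3, neuronal tubulin, stayed below 1 CPM; neither was called.

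Around OPRK1, no opioid peptide gene reached the filter. PDYN, the dynorphin precursor that supplies the ligand of the kappa receptor, had 1 count in C4-2-ENZ replicate 2 and none in the other libraries, and POMC had none in any. Among the receptors of the family, OPRM1 and OPRD1 did not pass the filter. The nociceptin receptor gene OPRL1, named here after its values were seen, had 1.161 and 0.9168 CPM in C4-2-ENZ and 0.2517 and 0.1782 CPM in C4-2-CON (log2 fold change 2.28, SE 0.351, edgeR adjusted p = 0.000127). Of 23 genes of the opioid system, 14 were tested; 10 rose and 1 fell, with a median log2 fold change of 0.55, or 0.28 with 7 higher and 4 lower after the length and GC correction. Over all genes 33.0% were called higher and 31.7% lower, with a median of -0.016, and of 0.088 over protein-coding genes. GNAI2, an inhibitory G protein subunit, rose 1.96-fold, to 73.64 and 71.56 CPM in C4-2-ENZ against 36.5 and 37.38 CPM in C4-2-CON. Its relative GNAI1 fell 6.07-fold, with 0.871 and 1.206 CPM in C4-2-ENZ and 6.208 and 6.308 CPM in C4-2-CON (edgeR adjusted p = 6.33e-08). The receptor kinase GRK3 rose 1.97-fold and the peptide-processing carboxypeptidase CPE 1.58-fold. KCNJ3, a channel subunit that opioid receptors can open, also named after its values were seen, rose 8.56-fold (edgeR adjusted p = 9.21e-07). Its levels were low, at 2.24 and 2.437 CPM in C4-2-ENZ and 0.2097 and 0.3207 CPM in C4-2-CON. The fold rests on 5 and 9 control counts.

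The growth factor of MET, HGF, had 0 counts in all 4 libraries. Of 27 genes of this pathway, 25 were tested, of which 19 rose and 1 fell. Over all genes 33.0% were called higher and 31.7% lower. The median log2 fold change of the list was 0.60, against -0.016 over all genes and 0.088 over protein-coding genes. When length and GC content were corrected for, 15 genes of the list were called higher and 4 lower, and its median was 0.42. NRP1, a coreceptor of several growth factors, rose to 435.4 and 437.6 CPM in C4-2-ENZ, against 116.2 and 117.6 CPM in C4-2-CON (log2 fold change 1.90, SE 0.0372, edgeR adjusted p = 9.87e-12). LRIG1, a membrane protein that lowers MET and related receptors, rose 2.97-fold. STAT3, a transcription factor downstream of receptor kinases, rose 1.89-fold. The phosphatase PTPN2 fell 1.63-fold.

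Around CCN3, 10 of 13 genes of the CCN family and its receptors were tested, and 8 rose and 0 fell by edgeR and by DESeq2. At an unadjusted p below 0.05, 1 was lower by edgeR and 0 by DESeq2; it was CCN6, named after its values were seen, with 0.3318 and 0.4343 CPM in C4-2-ENZ and 0.5873 and 0.6771 CPM in C4-2-CON. The median log2 fold change of the list was 0.47, beside -0.016 over all genes and 0.088 over protein-coding genes. Of all genes, 33.0% were called higher and 31.7% lower. Corrected for length and GC content, 6 genes of the list were called higher and its median was 0.33. ITGB5, an integrin subunit, rose to 98.82 and 95.73 CPM in C4-2-ENZ, against 36.24 and 37.31 CPM in C4-2-CON (edgeR adjusted p = 2.39e-10). ITGA6, another integrin subunit, rose 1.55-fold. NOTCH1, a receptor that CCN3 can bind, rose 1.56-fold, but was not called when length and GC content were corrected for (log2 fold change 0.058, edgeR adjusted p = 0.152). CCN1, a family member also named after its values were seen, rose 2.0-fold, and CCN2 had 0 counts in every library.

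Around SERPINI1, the plasminogen activators that neuroserpin can inhibit were scarce. PLAT, its main target, had 0.3318 and 0.4101 CPM in C4-2-ENZ and 0.4195 and 0.7127 CPM in C4-2-CON and was not called, except without C4-2-CON replicate 1 (edgeR adjusted p = 0.0484). PLAU had at most 0.0724 CPM. Of 16 genes on this list 7 were tested, with 1 higher and 3 lower. LRP1, an endocytic receptor for serpin complexes, rose 1.88-fold. SERPINE2, protease nexin 1, fell 2.24-fold, and the other lower calls were SERPINB6 and PDCD10. PDCD10 is the genomic neighbour of SERPINI1 described above, not a serpin or a target. It adds 1 of the 3 lower calls and counts in the median of the list. The calls compare with 33.0% higher and 31.7% lower over all genes. The list had a median log2 fold change of -0.33, against -0.016 over all genes, which was -0.60 with the length and GC correction and -0.14 with total count scaling.

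Around DDC, the hydroxylases that make its substrates were barely detected. TH, tyrosine hydroxylase, had at most 0.0622 CPM, and TPH1, tryptophan hydroxylase, had 0.4563 and 0.6514 CPM in C4-2-ENZ and 0.2097 and 0.4276 CPM in C4-2-CON. TPH1 was called only without C4-2-CON replicate 2 (edgeR adjusted p = 0.0387). Of 24 genes of amine synthesis and handling, 14 were tested, and 5 rose and 3 fell. Their median log2 fold change was 0.06, against 0.088 over protein-coding genes, and turned to -0.16 with the length and GC correction. The share that rose is near the 33.0% of all genes called higher, and 31.7% of all genes were called lower. PTS, of tetrahydrobiopterin synthesis, fell to 34.38 and 33.0 CPM in C4-2-ENZ, against 100.9 and 104.2 CPM in C4-2-CON (log2 fold change -1.61, SE 0.0447, edgeR adjusted p = 8.13e-11). GCH1, the first enzyme of that route, fell 1.43-fold, and the amino acid transporter SLC7A5 fell 1.55-fold. MAOA, which breaks down amines, rose to 1290 and 1267 CPM in C4-2-ENZ, against 758.2 and 767.6 CPM in C4-2-CON (edgeR adjusted p = 1.87e-09).

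**Figure D4:**
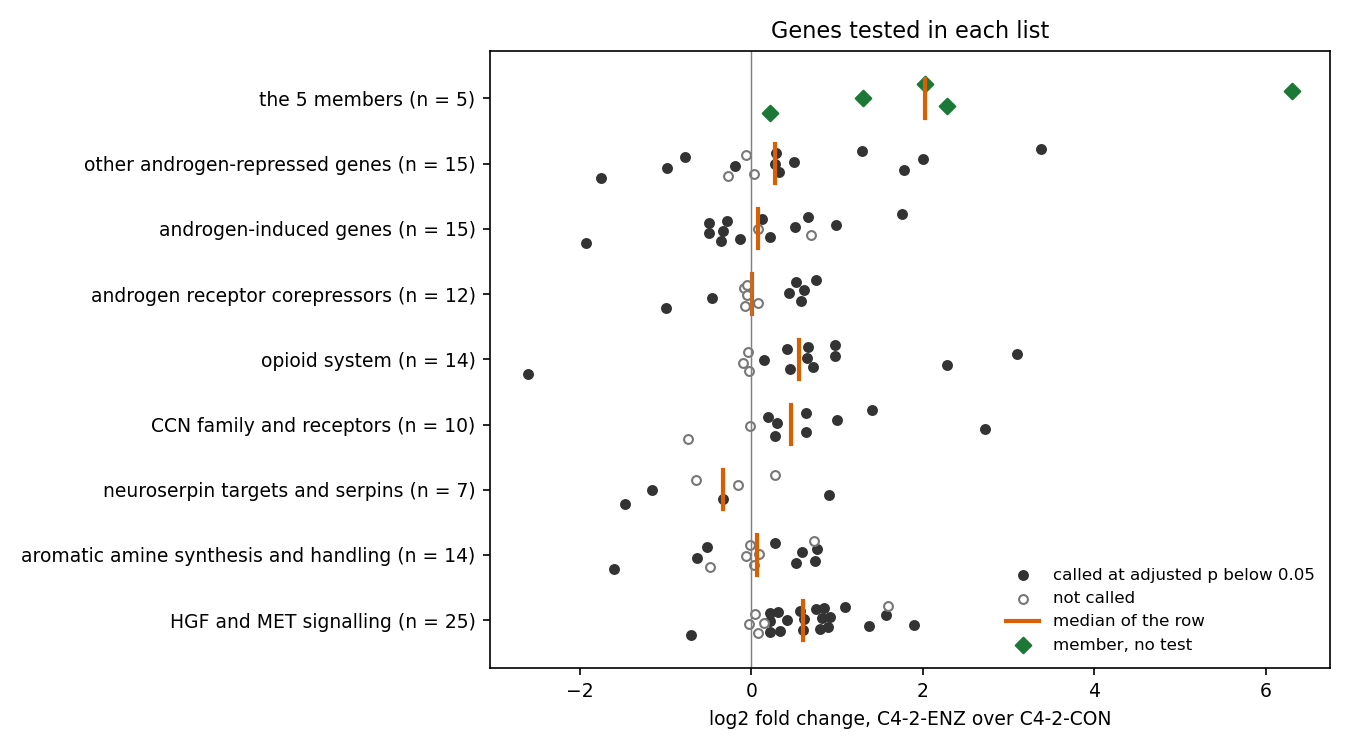
Log2 fold change (C4-2-ENZ over C4-2-CON) of each tested gene of the members and of 8 gene lists, cell type marker lists not drawn; filled points were called at an edgeR adjusted p below 0.05, open points were not, diamonds are the 5 members with no test, and orange bars are medians. The medians of the lists drawn range from -0.333 for neuroserpin targets and serpins, a list that also holds PDCD10, to 0.601 for HGF and MET signalling. The median of the members, 2.02, is not to be compared with these, since this contrast was used to choose them. The lists were drawn up with earlier results of these data known, so their medians are description only.

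The protein-coding genes whose log2 CPM over the 4 libraries, centred on their mean, lay nearest to each member were also found, as a description over few points. For OPRK1 they were SEMA5A, VWC2L and CDH9, at Euclidean distances of 0.471, 0.547 and 0.553, and CDH9 had no count in C4-2-CON. PCDHGA6, OAS1 and FZD7 lay nearest to CCN3, SORL1, HS3ST1 and SHC3 to SERPINI1, and UPK3A, MBOAT1 and POU2AF2 to MET. For DDC they were IMPACT, CDS1 and AMPD2, but 2625 genes lay within 0.2 of DDC, against 161 for MET, 30 for SERPINI1, 18 for CCN3 and 0 for OPRK1.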

How the data were processed

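Total RNA of 4 libraries was sequenced. The authors deposited raw read counts per gene, 1 table per library and not normalized. Per the submitters' processing notes, STAR 2.5.2b and the GRCh38 (hg38) build were used, with HTSeq; for its version, mode, use of strand and annotation, nothing is given in the labels. The 5 rows that name no gene held 55.41% to 74.4% of HTSeq records and stayed out of library sizes and tests. Identifiers were matched to GENCODE 29 for 56753 of 60483 rows.

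Counts were filtered (edgeR filterByExpr, minimum count 10), scaled by TMM and fitted with the quasi-likelihood test of edgeR 4.0.16 in R 4.3.3, with group as the only term and 2 residual degrees of freedom. Benjamini-Hochberg adjustment ran over 20325 genes, with calls below 0.05. The SE of a log2 fold change is approximate: the absolute log2 fold change divided by the square root of the edgeR F statistic. It can understate the noise where counts are few, and the DESeq2 SE was larger for every member. Errors are SD with n = 2. Libraries of a pair differed beyond sampling noise (chi-square per degree of freedom 2.38 for C4-2-ENZ and 5.67 for C4-2-CON), so each counted as 1 replicate; with no label that makes them separate cultures, p-values measure the spread among libraries only, which may be technical. Other settings were DESeq2 1.42.0, DESeq2 size factors, total count scaling, no filter, a filter of 1 CPM in 2 libraries, a length and GC correction, a replicate block and leaving out each library. The fitting was tested on simulated data, which had few changed genes and the same dispersion for all genes. The data here differ from that, so the simulation does not vouch for the calls reported.

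The members and gene lists were chosen with earlier results of these data known. Genes named were the members; all of the other androgen-repressed list; up to 3 called genes per direction of each other list with the smallest adjusted p; the nearest protein-coding neighbours; the 3 nearest patterns; defining ligands, substrates and partners; and list genes at 0. Some genes that this rule names are not reported here; they stay in the counts and medians of their lists.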

Additional observations from a re-analysis of the deposited data

How the results depend on the processing

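All 5 members kept a higher level in C4-2-ENZ under every setting run, a direction that their choice had fixed. With total count scaling the log2 fold changes were 2.47 for SERPINI1, 0.404 for DDC and 1.49 for MET; that scaling made 64.4% of all calls higher (8615 higher and 4761 lower), against 51.0% with TMM. Without a count filter SERPINI1 was at 2.37 and DDC at 0.312; with the 1 CPM filter they were at 2.23 and 0.168; with the length and GC correction SERPINI1 was at 2.68. Leaving out 1 library gave 6.06 to 6.66 for OPRK1, 1.84 to 2.21 for CCN3, 2.25 to 2.31 for SERPINI1, 0.188 to 0.252 for DDC and 1.18 to 1.43 for MET. It also gave 2 to 4 lower calls among other androgen-repressed genes (2 without C4-2-ENZ replicate 2) and 1 to 2 among HGF and MET signalling genes (2 without C4-2-CON replicate 2). Total count scaling called 8 corepressors and 8 amine genes higher. The 1 CPM filter called 4 corepressors lower. The length and GC correction called 5 corepressors, 4 opioid genes, 6 amine genes and 4 HGF and MET genes lower. Medians changed sign for androgen-induced genes (-0.075 with the 1 CPM filter, -0.169 with the length and GC correction), corepressors (-0.035 with the 1 CPM filter) and amine genes (-0.163 with the length and GC correction). CLU was at -0.017 with the 1 CPM filter and -0.253 with the length and GC correction. NR3C1 was at 0.127 with total count scaling, 0.034 without a filter and between -0.269 and 0.148 with 1 library left out (0.148 without C4-2-CON replicate 1). The cause of these shifts was not tested. Replicate numbers are shared between groups without a label that pairs them, and same-numbered libraries did not deviate together (correlation -0.0228); a fit with the replicate number as a block gave 6647 higher and 6444 lower calls, with OPRK1 at 6.30. DESeq2 called 5568 higher and 4836 lower. Low control counts limit the precision of OPRK1 and CCN3, and leaving out a library assumes that the lone library varies like the others.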

Other observations

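Among 15 genes that the androgen receptor activates, 6 rose and 7 fell in C4-2-ENZ. Their median log2 fold change was 0.073, beside 0.088 over protein-coding genes. Its sign depends on the filter and on the length and GC correction. Of all genes tested, 33.0% were called higher and 31.7% lower. TMPRSS2, a transmembrane protease gene, rose to 206.2 and 205.4 CPM in C4-2-ENZ, against 100.7 and 106.4 CPM in C4-2-CON (edgeR adjusted p = 2.21e-09). KLK3, which encodes prostate-specific antigen, fell to 487.4 and 477.3 CPM in C4-2-ENZ, against 662.9 and 691.6 CPM in C4-2-CON (edgeR adjusted p = 1.86e-07). The cation channel gene TRPM8 fell 3.82-fold and FKBP5, a chaperone of steroid receptors, fell 1.41-fold. Genes of this list thus moved in both directions in the libraries in which the 5 members were higher.

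Of 12 corepressor genes, 5 rose and 2 fell, where 33.0% of all genes tested were called higher and 31.7% lower. NCOR1, a nuclear receptor corepressor, rose 1.53-fold, RCOR1, a partner of the histone demethylase KDM1A, rose 1.68-fold, and TBL1X, a subunit of the NCOR complex, rose 1.5-fold. EZH2, the methyltransferase of Polycomb repressive complex, had 44.42 and 45.62 CPM in C4-2-ENZ and 89.18 and 90.16 CPM in C4-2-CON (log2 fold change -0.995, SE 0.042, edgeR adjusted p = 1.92e-09). HDAC2, a histone deacetylase, fell 1.37-fold.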
